A study of Homo sapiens with 16 samples.

Results

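The 51 genes described here encode the proteins that copy DNA, from the licensing of origins to the ligation of the lagging strand, with 2 enzymes of thymidylate supply and the factor that processes histone mRNA. They were taken by symbol and matched to the Ensembl identifiers of the count table through GENCODE release 44, and all 51 were found among the 43836 genes listed. By role they were 15 licensing genes, 8 genes of origin firing, 9 polymerase and primase subunits, 6 genes of the sliding clamp and its loader, 3 of single-strand binding, 3 of Okazaki fragment processing, 4 of fork stability, 2 of thymidylate supply and 1 of histone mRNA. The lowest count of any of them in any library was 13.

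RNA-seq was performed on KG-1, an established human acute myeloid leukemia (AML) cell line of myeloblast-like cells in suspension. Every library came from cells carrying a lentiviral shRNA vector and selected with puromycin. Control cells carried the non-target pLKO.1-puro vector, and the cells called FOXM1-KD here (shFOXM1 in the labels) a FOXM1 shRNA. FOXM1 is a transcription factor of the cell cycle. Control cells received 0.3% DMSO, 0.75 µM AraC, 100 nM venetoclax or 50 µM STL427944 for 48 h, or 30 µM MK-2206 for 24 h. FOXM1-KD cells received DMSO, AraC or venetoclax at the same doses for 48 h. Each of the 8 conditions had 2 libraries, 16 in all, and the counts assigned to genes ran from 7351755 to 21362546 per library. The study's methods call the 2 libraries of a condition biological replicates, without saying how the cultures were separated. Whether a FOXM1-KD culture was 1 clone or a selected pool is not stated.

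Before a cell copies its DNA, the origin recognition complex, CDC6 and CDT1 load the MCM helicase ring onto origins, and geminin (GMNN) blocks CDT1 afterwards. The kinases CDK2 and CDC7 then fire the origins by adding CDC45 and the GINS complex to the ring, and the polymerases follow with the clamp PCNA. Most of these genes are transcribed in late G1 and S phase under E2F factors. AraC, or cytarabine, is a cytidine analog used against AML that is built into DNA and stalls the fork. Venetoclax inhibits BCL-2, MK-2206 inhibits AKT, and STL427944 was used in the study as a FOXM1 inhibitor.

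The promoters of 6 of the genes are printed to show where E2F letters stand in genes that moved with AraC or MK-2206: CLSPN, CDC6 and TK1, which passed the 2-fold call with AraC in one of the lines, MCM2 and MCM6, which were slightly lower with it, and RPA1, which fell most with MK-2206. Each sequence is from RefSeq (GRCh38.p14) and runs 5′ to 3′ in the direction of transcription, from 120 bases before the annotated start to 20 bases after it. Capitals mark the letters TTTCCCGC, TTTCGCGC, TTTGCCGC or TTTGGCGC on either strand, and matches that overlap form 1 run.
CLSPN, chr1:35769959-35770098, - strand: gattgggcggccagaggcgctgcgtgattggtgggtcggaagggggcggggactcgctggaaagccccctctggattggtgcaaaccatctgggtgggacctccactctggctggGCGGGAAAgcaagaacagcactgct
CDC6, chr17:40287759-40287898, + strand: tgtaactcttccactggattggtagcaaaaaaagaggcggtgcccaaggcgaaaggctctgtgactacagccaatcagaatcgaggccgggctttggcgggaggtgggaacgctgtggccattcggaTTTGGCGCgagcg
TK1, chr17:78187185-78187324, - strand: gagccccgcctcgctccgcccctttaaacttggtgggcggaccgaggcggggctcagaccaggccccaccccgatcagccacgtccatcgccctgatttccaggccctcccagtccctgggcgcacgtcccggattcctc
MCM2, chr3:127598291-127598430, + strand: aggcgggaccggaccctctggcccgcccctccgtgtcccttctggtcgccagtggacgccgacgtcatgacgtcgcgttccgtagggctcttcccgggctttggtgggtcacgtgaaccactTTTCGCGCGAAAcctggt
MCM6, chr2:135876424-135876563, - strand: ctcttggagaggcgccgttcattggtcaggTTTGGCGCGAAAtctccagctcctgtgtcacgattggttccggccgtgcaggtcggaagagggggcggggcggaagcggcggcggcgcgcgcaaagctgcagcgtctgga
RPA1, chr17:1829885-1830024, + strand: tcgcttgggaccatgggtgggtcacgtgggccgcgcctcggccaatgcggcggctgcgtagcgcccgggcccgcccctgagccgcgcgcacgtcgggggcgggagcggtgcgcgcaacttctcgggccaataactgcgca
CLSPN and CDC6 held 1 match each, MCM2 and MCM6 each held 2 overlapping matches, and TK1 and RPA1 held none in these stretches.

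RefSeq windows of 300 bases, 250 before and 50 after the start, were at hand for 45 of the 51 genes and not for MCM4, MCM5, GINS4, POLD3, RPA2 and RPA3. E2F letters stood in a window of 22 of the 45 (48.9%), against 3.99% of all 27305 genes with a window. By window rather than gene, the shares were 38.6% of 57 windows and 3.31% of 35116. The letters CCAAT, on either strand, stood in 26 of the 45 genes (57.8%) and in 39.72% of all genes. The cell cycle homology letters, TTTGAA or TTCGAA, stood in 2 of the 45 (4.4%) and in 19.54% of all genes. The 22 genes with E2F letters had a median log2 change with AraC in control cells of 0.27, and the 23 without had 0.25. With MK-2206 the same medians were -2.1 and -1.65. A match of letters is a description of the sequence and not a measured binding site.

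The libraries fell apart in ways that touch the results. CD34, a surface marker of KG-1, had 12483 to 28951 counts in the 8 control libraries without MK-2206, and 0 to 18 counts in the 8 libraries of MK-2206 and FOXM1-KD. Over 8 KG-1 markers the summed level ran from 2402 to 3232 CPM (counts scaled to a common library size) in the former, from 205 to 241 CPM under MK-2206, and FOXM1-KD libraries ran from 1261 to 1771 CPM. The KG-1 markers did not all go one way in FOXM1-KD cells. HLA-DRA had 13241 to 16877 counts in those 8 control libraries and 347 to 3949 in FOXM1-KD cells, and KIT had 313 to 956 and 1 to 20. SPN had 5478 to 8936 and 12755 to 19680 counts, and CD33 had 293 to 1142 and 1493 to 1798, both higher in FOXM1-KD cells. Another 7 myeloid markers included the promyelocyte granule genes MPO, ELANE and AZU1. Their summed level was 7.3 to 51.3 CPM in those 8 control libraries, 359.8 to 576 under MK-2206 and 3403 to 13099 in FOXM1-KD cells. CD68 was at 0 in both MK-2206 and FOXM1-KD libraries. In FOXM1-KD cells MPO had 28881 to 155753 counts, CSF1R 61 to 315 and CD14 7 to 118. Of 8 markers of other cells, 1 reached 10 counts in a control library, 3 with MK-2206 and 1 in FOXM1-KD cells. The part of these differences in the results below was not tested, and the shRNA, MK-2206 and any other difference between the cells in these libraries cannot be told apart. Among the untreated and treated libraries of control cells, the second STL427944 library and the first venetoclax library stood low for the replication genes, with summed levels of 6077 and 7335 CPM, against 9863 and 9268 CPM in their partners.

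FOXM1, the target of the shRNA, was measured at 140.0 and 138 CPM in control cells with DMSO and at 48.8 and 81.8 CPM in FOXM1-KD cells with DMSO (log2 fold change -1.08 ± 0.28 (SE), adjusted p = 0.056). With AraC it was at 181 and 156 CPM in control and 121 and 114 CPM in FOXM1-KD cells (log2 fold change -0.56 ± 0.20 (SE), adjusted p = 0.0124). With venetoclax the levels were 121 and 127 CPM and 50.6 and 57.0 CPM (log2 fold change -1.20 ± 0.39 (SE), adjusted p = 0.0113). FOXM1 was therefore lower in all 6 FOXM1-KD libraries than in the control libraries of the same treatment, by less than 2-fold with AraC. It stood at 21.7 and 19.8 CPM with MK-2206 and at 137 and 112 CPM with STL427944.

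Levels in control cells with DMSO were divided by the annotated exon length, in kilobases, to set different genes side by side. The highest of the 51 were MCM3 at 262 CPM per kb, MCM4 at 188 and PCNA at 182. TYMS followed at 139. The lowest were POLA2 at 5.58, GINS3 at 4.71, ORC4 at 4.55 and ORC5 at 3.97 CPM per kb, which belong to primase-associated, firing and origin-binding complexes. This order depends on the lengths, 12006 bases for POLA2, 9852 for MCM4 and 3645 for MCM3. Before the division MCM4 at 1848 CPM was above MCM3 at 956 CPM, and POLA2 stood at 67.0 CPM. The length of the transcripts made in these cells was not measured. All levels given below without a length are CPM of a single gene, scaled with TMM factors over the 16 libraries, and compare libraries only.

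ORC1, which helps mark the origin, stood at 93.8 and 95.2 CPM with DMSO in control cells, 124 and 116 with AraC, 67.5 and 83.6 with venetoclax, 87.5 and 59.9 with STL427944 and 21.1 and 22.8 with MK-2206. Its FOXM1-KD libraries had 101 and 112 CPM with DMSO, 205 and 189.5 with AraC and 111 and 106 with venetoclax. All 3 FOXM1-KD conditions lay above the control cells of the same treatment, and MK-2206 was lowest. CDC6 was measured at 156 and 171 CPM with DMSO in control cells, 307 and 319.9 with AraC, 113 and 160.5 with venetoclax, 157 and 95.9 with STL427944 and 62.6 and 88.3 with MK-2206. In FOXM1-KD cells it had 80.7 and 108 CPM with DMSO, 185 and 214 with AraC and 101 and 120.02 with venetoclax. AraC was highest in both lines, and the FOXM1-KD libraries with DMSO and with AraC lay below the control ones. CDT1, which loads the ring with CDC6, had 146 and 142 CPM with DMSO in control cells, 185 and 139 with AraC, 167 and 123 with venetoclax, 129 and 132 with STL427944 and 75.4 and 42.1 with MK-2206. The FOXM1-KD libraries gave 191 and 162 CPM with DMSO, 280.2 and 200.2 with AraC and 142 and 111 with venetoclax. The MK-2206 libraries were lowest, and the 2 AraC libraries of control cells fell on either side of the DMSO ones. GMNN stood at 117 and 113 CPM with DMSO in control cells, 128 and 146 with AraC, 58.8 and 122 with venetoclax, 127 and 54.0 with STL427944 and 18.9 and 20.5 with MK-2206. FOXM1-KD cells showed 52.0 and 66.7 CPM with DMSO, 55.9 and 70.9 with AraC and 53.4 and 74.3 with venetoclax. The FOXM1-KD libraries lay near the low venetoclax and STL427944 libraries of control cells, and MK-2206 was lowest.

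MCM2, a ring subunit, was measured at 563 and 532 CPM with DMSO in control cells, 491 and 398 with AraC, 398 and 441 with venetoclax, 506 and 269 with STL427944 and 41.3 and 40.1 with MK-2206. Its FOXM1-KD libraries had 398 and 483 CPM with DMSO, 584 and 467 with AraC and 452 and 373 with venetoclax. AraC, venetoclax and STL427944 libraries all lay below both DMSO libraries in control cells. MCM5, another ring subunit, had 483 and 474 CPM with DMSO in control cells, 388 and 331 with AraC, 382 and 398 with venetoclax, 431 and 321 with STL427944 and 108 and 75.5 with MK-2206. In FOXM1-KD cells it had 300.4 and 389 CPM with DMSO, 517 and 420.3 with AraC and 381 and 358 with venetoclax. AraC lay below DMSO in control cells and above it in FOXM1-KD cells. CDC45, part of the active helicase, stood at 72.7 and 73.1 CPM with DMSO in control cells, 112 and 96.6 with AraC, 63.0 and 66.2 with venetoclax, 69.3 and 55.9 with STL427944 and 23.0 and 18.0 with MK-2206. The FOXM1-KD libraries gave 71.8 and 113 CPM with DMSO, 169 and 143 with AraC and 95.9 and 88.9 with venetoclax. AraC was highest in both lines and MK-2206 lowest. GINS2 was measured at 69.3 and 64.3 CPM with DMSO in control cells, 62.6 and 54.1 with AraC, 46.9 and 55.0 with venetoclax, 69.0 and 34.4 with STL427944 and 5.00 and 5.78 with MK-2206. FOXM1-KD cells showed 22.3 and 33.4 CPM with DMSO, 33.8 and 34.6 with AraC and 29.3 and 26.6 with venetoclax. Every FOXM1-KD library lay below every control library with DMSO, AraC or venetoclax. DBF4, the activator of CDC7, had 58.3 and 61.4 CPM with DMSO in control cells, 59.7 and 76.2 with AraC, 34.7 and 77.6 with venetoclax, 66.6 and 39.1 with STL427944 and 33.9 and 44.7 with MK-2206. Its FOXM1-KD libraries had 62.0 and 77.9 CPM with DMSO, 41.999 and 64.5 with AraC and 53.4 and 101 with venetoclax. Within venetoclax of control cells the second library was more than 2-fold above the first, and MK-2206 lay below DMSO.

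POLA1, the catalytic subunit of polymerase alpha, stood at 147 and 156 CPM with DMSO in control cells, 193 and 218 with AraC, 96.0 and 159.6 with venetoclax, 157 and 121 with STL427944 and 42.6 and 77.1 with MK-2206. In FOXM1-KD cells it had 115 and 140.2 CPM with DMSO, 188 and 224 with AraC and 100.4 and 149 with venetoclax. AraC was highest in both lines, with no overlap with DMSO. POLE was measured at 324 and 309.8 CPM with DMSO in control cells, 387 and 322 with AraC, 332 and 259 with venetoclax, 301 and 335 with STL427944 and 218 and 162 with MK-2206. The FOXM1-KD libraries gave 237 and 288 CPM with DMSO, 533 and 431 with AraC and 298 and 264 with venetoclax. AraC overlapped DMSO in control cells and lay above it in FOXM1-KD cells. PCNA, the sliding clamp, had 259 and 252 CPM with DMSO in control cells, 280.2 and 308 with AraC, 169 and 304 with venetoclax, 293 and 125 with STL427944 and 191 and 139.6 with MK-2206. FOXM1-KD cells showed 252 and 365 CPM with DMSO, 310.1 and 343 with AraC and 264 and 325 with venetoclax. Both AraC libraries of control cells were above DMSO, while venetoclax and STL427944 each had a library on either side. RFC3, a clamp loader subunit, stood at 177 and 174 CPM with DMSO in control cells, 225 and 246 with AraC, 102 and 188 with venetoclax, 197 and 92.7 with STL427944 and 28.6 and 38.0 with MK-2206. Its FOXM1-KD libraries had 97.6 and 126 CPM with DMSO, 121 and 154 with AraC and 80.3 and 126 with venetoclax. AraC was highest in control cells, and both FOXM1-KD libraries with DMSO and with AraC lay below the control ones.

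RPA2 was measured at 110.5 and 108 CPM with DMSO in control cells, 142 and 133 with AraC, 86.3 and 118 with venetoclax, 118 and 61.6 with STL427944 and 25.7 and 29.0 with MK-2206. In FOXM1-KD cells it had 100.5 and 124 CPM with DMSO, 142 and 138 with AraC and 111 and 116 with venetoclax. AraC lay above DMSO in both lines by a small margin. FEN1 had 158 and 159 CPM with DMSO in control cells, 207 and 183 with AraC, 119 and 149 with venetoclax, 166 and 95.7 with STL427944 and 29.4 and 30.5 with MK-2206. The FOXM1-KD libraries gave 144 and 197 CPM with DMSO, 202 and 174 with AraC and 209.6 and 162 with venetoclax. AraC lay above DMSO in control cells and overlapped it in FOXM1-KD cells. TYMS stood at 342 and 333 CPM with DMSO in control cells, 502 and 498 with AraC, 248 and 333 with venetoclax, 356 and 208 with STL427944 and 81.0 and 59.8 with MK-2206. FOXM1-KD cells showed 302 and 484 CPM with DMSO, 552 and 536 with AraC and 348 and 351 with venetoclax. AraC lay above DMSO in both lines, and the 2 FOXM1-KD DMSO libraries lay on either side of the control ones. TK1 was measured at 157 and 149 CPM with DMSO in control cells, 317 and 246 with AraC, 177 and 103 with venetoclax, 144 and 151 with STL427944 and 51.3 and 31.4 with MK-2206. Its FOXM1-KD libraries had 72.1 and 114 CPM with DMSO, 293 and 204 with AraC and 125 and 72.7 with venetoclax. AraC was highest in both lines, and the venetoclax libraries of control cells fell on either side of DMSO. CLSPN had 100.3 and 117 CPM with DMSO in control cells, 209 and 259 with AraC, 92.4 and 125 with venetoclax, 113 and 98.4 with STL427944 and 11.0 and 28.8 with MK-2206. In FOXM1-KD cells it had 66.1 and 105 CPM with DMSO, 145 and 202 with AraC and 87.7 and 112 with venetoclax. AraC was highest in both lines, and the lowest libraries were those of MK-2206. SLBP stood at 137 and 135 CPM with DMSO in control cells, 223 and 222 with AraC, 118 and 133 with venetoclax, 135 and 71.2 with STL427944 and 182 and 121 with MK-2206. The FOXM1-KD libraries gave 188 and 271 CPM with DMSO, 273 and 269 with AraC and 182 and 245 with venetoclax. MK-2206 overlapped DMSO, and every FOXM1-KD library with DMSO, AraC or venetoclax lay above the control ones of that treatment.

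AraC against DMSO in control cells asked how replication genes respond when forks are stalled. Treatment with AraC was followed by small changes in many of them: 20 of the 51 were higher and 5 lower at an adjusted p below 0.1 (edgeR, quasi-likelihood test, Benjamini-Hochberg over 22842 genes). The background was 10.2% of all genes higher and 9.17% lower, and 14.9% and 15.7% of the 9928 protein-coding genes with a mean of 100 counts or more. A call here also needed a 2-fold change, and by that rule only CLSPN was called, against 4.52% of all genes called higher and 2.17% lower. The median log2 fold change of the 51 was 0.25, against -0.01 over all genes tested and -0.02 over the well measured protein-coding genes. The counts without a fold limit depended on the fit: 33 were higher and 6 lower with offsets for GC content, 25 and 3 with library totals, 3 were higher and none lower with all 16 libraries in one fit, 8 and none without the first DMSO library, 5 and none without the second, and none in either direction without either AraC library. In bulk RNA a higher share of cells in S phase and more RNA per cell cannot be told apart.

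**Figure D1:**
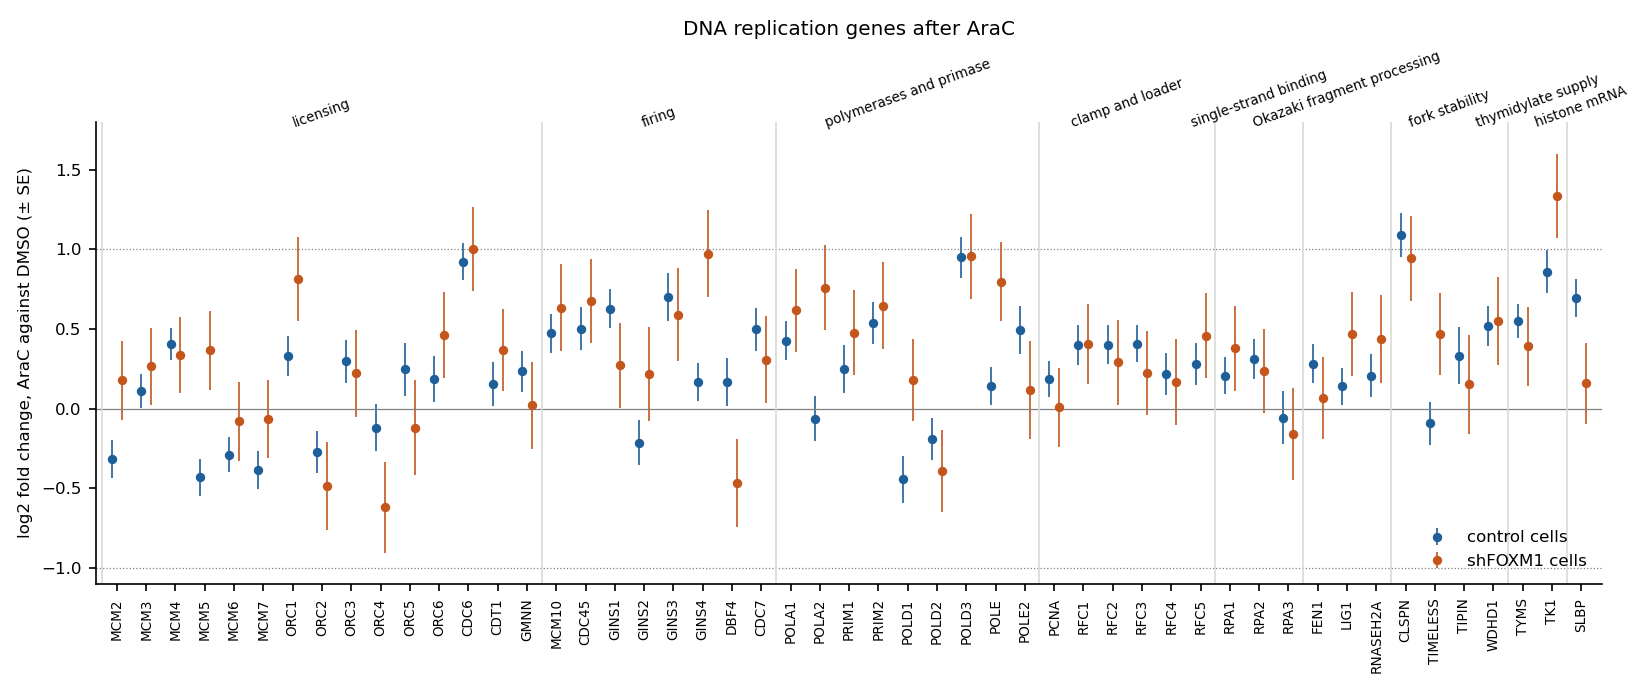
Log2 fold change of the 51 genes with AraC against DMSO, with its standard error, in control cells (blue) and FOXM1-KD cells (shFOXM1, orange), grouped by role; dotted lines mark a 2-fold change and each estimate rests on 2 libraries per group. In control cells CLSPN at 1.09 lies past the 2-fold line and MCM5 at -0.43 and POLD1 at -0.45 lie lowest; in FOXM1-KD cells TK1 at 1.34 and CDC6 at 1.01 lie past it, with wider errors.

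The gene with the largest change was CLSPN (chr1:35720218-35769978), whose product claspin carries the checkpoint signal at stalled forks. It had 100.3 and 117 CPM with DMSO and 209 and 259 CPM with AraC, a 2.13-fold difference (log2 fold change 1.09 ± 0.14 (SE), adjusted p = 5.73e-05). Both AraC libraries lay above both DMSO libraries. The call did not hold without the first DMSO library (0.98) or without either AraC library (adjusted p 0.135 and 0.174).

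Among licensing genes, CDC6, which brings the MCM ring to the origin, had 156 and 171 CPM with DMSO and 307 and 319.9 CPM with AraC (log2 fold change 0.92 ± 0.12 (SE), adjusted p = 6.23e-05). ORC1, the largest origin recognition subunit, rose from 93.8 and 95.2 to 124 and 116 CPM (log2 fold change 0.33 ± 0.13 (SE), adjusted p = 0.0994). The 2 regulators of loading did not pass: CDT1 had log2 fold changes of 0.15 ± 0.14 and GMNN of 0.23 ± 0.13, with adjusted p of 0.571 and 0.276.

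The 6 subunits of the MCM ring, which are present in equal numbers in the helicase, did not move together. MCM4 rose from 1951 and 1746 to 2609 and 2342 CPM (log2 fold change 0.40 ± 0.10 (SE), adjusted p = 0.0116). MCM5 fell from 483 and 474 to 388 and 331 CPM (log2 fold change -0.43 ± 0.12 (SE), adjusted p = 0.0189). MCM7 went from 259 and 257 to 212 and 188 CPM (log2 fold change -0.38 ± 0.12 (SE), adjusted p = 0.039). In these 3, and in MCM2 and MCM6, the AraC and DMSO libraries did not overlap, while in MCM3 they did. MCM2 (-0.32 ± 0.12, adjusted p = 0.0952) and MCM6 (-0.29 ± 0.11, adjusted p = 0.0983) were lower near the threshold, and MCM3 did not pass (0.11 ± 0.11, adjusted p = 0.584). Over 11 fits, the reported one and 10 with other scalings, filters or libraries left out, the direction of each of the 6 held, with MCM4 between 0.32 and 0.51 and MCM5 between -0.55 and -0.29, while the adjusted p was below 0.1 in 7 and 6 of the 11 fits.

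**Figure D2:**
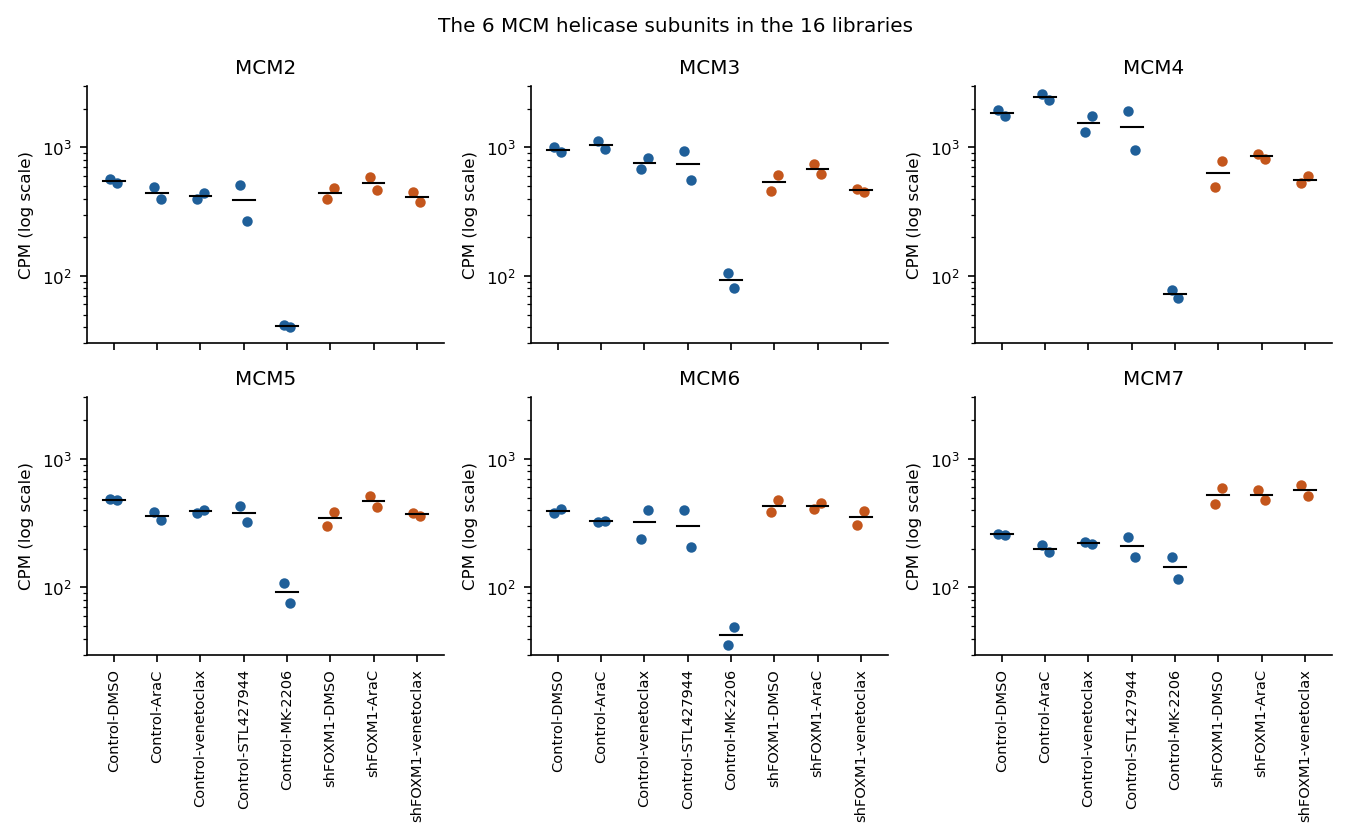
Levels of the 6 MCM subunits (CPM, log axis) in the 16 libraries, by condition; points are single libraries, black lines the mean of 2, blue the control and orange the FOXM1-KD cells. The MK-2206 libraries lie below all others for MCM2 to MCM6, at 40.1 and 41.3 CPM for MCM2, and MCM7 has every FOXM1-KD library above every control library, from 447 CPM upwards.

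Origin firing genes were higher in 5 of 8 cases. GINS3, a subunit of the GINS complex, had 24.3 and 23.8 CPM with DMSO and 40.8 and 38.4 CPM with AraC (log2 fold change 0.70 ± 0.15 (SE), adjusted p = 0.00442). GINS1 (0.63 ± 0.12), CDC45 (0.50 ± 0.13), the kinase gene CDC7 (0.50 ± 0.14) and MCM10 (0.47 ± 0.12) also passed. GINS2 (-0.21 ± 0.14, adjusted p = 0.395) and DBF4 (0.17 ± 0.15, adjusted p = 0.56), the partner of CDC7, did not.

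Of the 9 polymerase and primase subunits 4 were higher and 1 lower. POLD3, an accessory subunit of polymerase delta, went from 66.6 and 68.5 to 127 and 137 CPM (log2 fold change 0.95 ± 0.13 (SE), adjusted p = 0.000109), while the catalytic subunit POLD1 went from 187 and 161 to 149 and 109.6 CPM (log2 fold change -0.45 ± 0.15 (SE), adjusted p = 0.055). The 2 subunits of one polymerase thus passed in opposite directions in this fit. Over the same 11 fits as for the MCM ring, POLD1 ran from -0.68 to -0.21 and POLD3 from 0.92 to 1.02. With all 16 libraries in one edgeR fit POLD1 did not pass (adjusted p = 0.778), while POLD3 did (adjusted p = 0.0713). POLA1, which extends the primer, had a log2 fold change 0.43 ± 0.12 (SE), adjusted p = 0.0267. POLE, the leading-strand polymerase, did not pass (0.14 ± 0.12, adjusted p = 0.537).

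The clamp loader subunits RFC1, RFC2 and RFC3 passed with log2 fold changes of 0.40, 0.40 and 0.41, and the clamp PCNA did not (0.18 ± 0.12, adjusted p = 0.358). None of the 3 single-strand binding and 3 Okazaki fragment genes passed, with RPA2 at 0.31 ± 0.12 (adjusted p = 0.112) and FEN1, which trims the flap of the fragment, at 0.28 ± 0.12 (adjusted p = 0.148). Both thymidylate genes passed. TK1, the salvage kinase, had 157 and 149 CPM with DMSO and 317 and 246 CPM with AraC (log2 fold change 0.86 ± 0.13 (SE), adjusted p = 0.000355). TYMS, the synthase, had 342 and 333 against 502 and 498 CPM (log2 fold change 0.55 ± 0.11 (SE), adjusted p = 0.00241). SLBP, which binds the stem-loop of histone mRNA, went from 137 and 135 to 223 and 222 CPM (log2 fold change 0.69 ± 0.12 (SE), adjusted p = 0.000698).

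In FOXM1-KD cells, AraC against DMSO raised 9 of the 51 at an adjusted p below 0.1, against a background of 10.8% of all 23381 genes tested, and lowered none, against 5.44%. Without a library these counts were 1 and 7 higher for the first and the second DMSO library, and none for either AraC library. With offsets for GC content 29 were higher and 2 lower, and with library totals 18 were higher. With the 2-fold limit 2 were called, TK1 and CDC6, where 9.03% of all genes were called higher and 2.57% lower. The median log2 fold change of the 51 was 0.34, against 0.03 over all genes tested. It rested on the first DMSO library, without which the medians were 0.15 and 0.14, and without the second they were 0.52 and 0.10. The standard errors were 0.26 for both TK1 and CDC6, where they were 0.13 and 0.12 in control cells.

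TK1 had 72.1 and 114 CPM with DMSO and 293 and 204 CPM with AraC (log2 fold change 1.34 ± 0.26 (SE), adjusted p = 1.31e-05). CDC6 had 80.7 and 108 against 185 and 214 CPM (log2 fold change 1.00 ± 0.26 (SE), adjusted p = 0.00225). CLSPN had 66.1 and 105 against 145 and 202 CPM (log2 fold change 0.94 ± 0.27 (SE), adjusted p = 0.00522), just under 2-fold. In each of these genes both AraC libraries were above both DMSO libraries. Without either AraC library neither TK1 nor CDC6 passed (adjusted p from 0.306 to 0.458), and 6 genes were called without the second DMSO library against 1 without the first.

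The genes that rose in both lines at an adjusted p below 0.1 were CDC6, CDC45, CLSPN, ORC1, POLD3 and TK1, which is 6 of the 20 in control cells (30.0%) and 6 of the 9 in FOXM1-KD cells (66.7%). These 2 comparisons share no library. The same overlap was not counted over all genes tested, so these shares have no background to be set against. POLD3 had 78.4 and 103 CPM with DMSO and 168 and 204 CPM with AraC in FOXM1-KD cells (log2 fold change 0.96 ± 0.27 (SE), adjusted p = 0.00432). ORC1 had 101 and 112 against 205 and 189.5 CPM (log2 fold change 0.81 ± 0.26 (SE), adjusted p = 0.0201).

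Whether the response to AraC differed between the lines was tested as an interaction over 8 libraries. No member was called, against 5.13% of the 26059 genes tested. By the adjusted p alone 5 passed, all with a higher response in FOXM1-KD cells. Of all genes 4.75% were higher and 1.91% lower, and of the 10305 well measured protein-coding genes 7.83% and 3.98%. MCM5 went from 300.4 and 389 CPM with DMSO to 517 and 420.3 CPM with AraC in FOXM1-KD cells, where the change did not pass (log2 fold change 0.37 ± 0.25 (SE), adjusted p = 0.417), while it fell in control cells, and the difference of the log2 changes was 0.88 ± 0.24 (SE, adjusted p = 0.00774). GINS4 went from 38.0 and 63.9 to 109 and 102 CPM in FOXM1-KD cells and from 193 and 177 to 215 and 206 CPM in control cells (difference 0.90 ± 0.27, adjusted p = 0.0194). The others were the polymerase subunits POLA2 (0.91 ± 0.28), POLE (0.74 ± 0.24) and POLD1 (0.71 ± 0.26). For CLSPN, CDC6 and POLD3 the difference was -0.06 ± 0.26, 0.17 ± 0.26 and 0.09 ± 0.27, with adjusted p of 1, 1 and 1. With all 16 libraries in one fit none of the 5 passed, with adjusted p from 0.753 to 0.998, and none did without either AraC library of control cells or without the first AraC library of FOXM1-KD cells.

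With MK-2206, 40 of the 51 genes were called lower and none higher. Of all 28905 genes tested, 17.9% were called lower and 26% higher, and of the 9871 well measured protein-coding genes 37.3% were called lower. The median log2 fold change was -1.77, against -0.50 over the well measured protein-coding genes and 1.03 over all genes, many of which have few counts. The zero point depends on the scaling, and the median of the 51 ran from -1.97 with library totals to -1.32 with offsets for GC content, with 41 and 30 genes called lower. With the FOXM1-KD DMSO libraries as reference 42 were called, and without the second MK-2206 library the median was -2.03. Both MK-2206 libraries lay below each of the other 14 libraries for 38 of the 51 genes on the TMM scale, as they did for 12% of 32000 genes with a count, and for 46 of the 51 on the scale of library totals, against 14.2%. DMSO was given for 48 h and MK-2206 for 24 h, and the MK-2206 libraries lacked CD34 as described. Their totals were the lowest of all, at 7351755 and 10330720 counts, with 6.68% and 18.37% in mitochondrial genes. The other libraries had 1.32% to 3.05% there. Genes detected were 21430 and 24957 with MK-2206, more than in any other library. Drug, time, cells and the state of these libraries cannot be told apart.

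**Figure D3:**
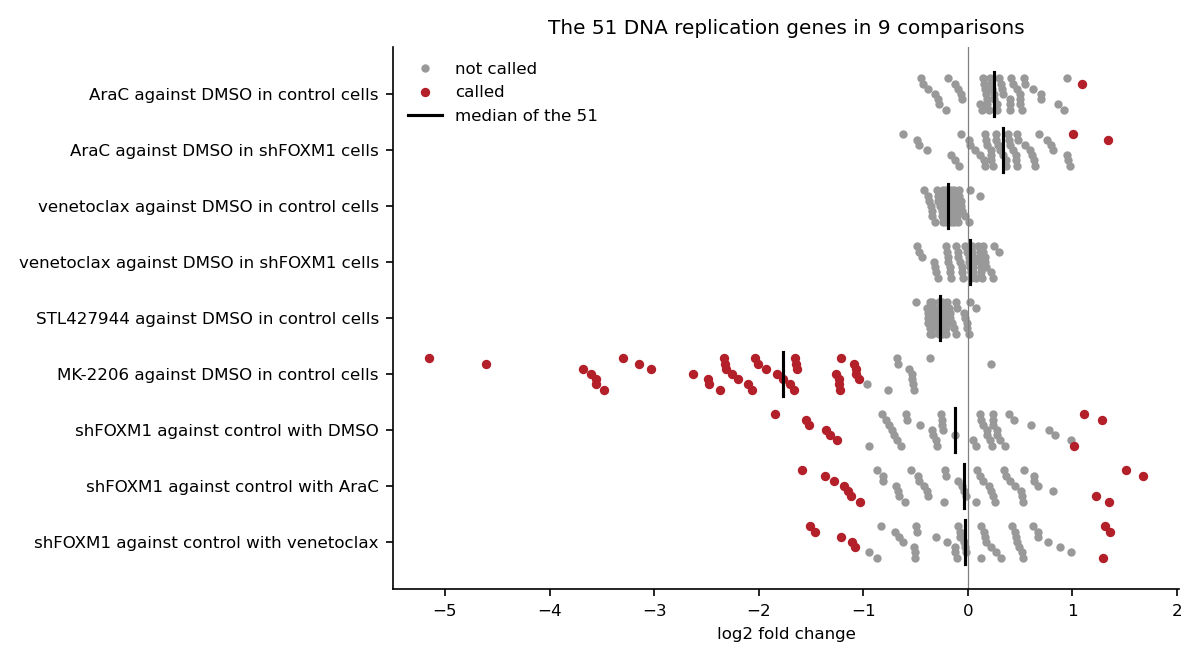
Log2 fold change of each of the 51 genes in 9 comparisons, with called genes (2-fold and adjusted p below 0.1) in red, the others in grey and the median of the 51 as a black bar; the vertical spread within a row only separates points. The genes lie below 0 with MK-2206 except SLBP at 0.22, lie on both sides of 0 in FOXM1-KD against control cells, and have no red points with venetoclax or STL427944.

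RPA1, the large subunit of the single-strand binding protein, fell from 259 and 255 CPM with DMSO to 5.28 and 8.32 CPM with MK-2206 (log2 fold change -5.15 ± 0.33 (SE), adjusted p = 1.22e-53). Its partner RPA2 fell from 110.5 and 108 to 25.7 and 29.0 CPM (log2 fold change -1.93 ± 0.29 (SE), adjusted p = 2.18e-10). The MCM ring was low in 5 subunits: MCM4 fell from 1951 and 1746 to 77.4 and 67.5 CPM (log2 fold change -4.61 ± 0.27 (SE), adjusted p = 1.08e-63). MCM2 fell from 563 and 532 to 41.3 and 40.1 CPM (log2 fold change -3.68 ± 0.28 (SE), adjusted p = 3.70e-37). MCM3 (-3.30), MCM6 (-3.14) and MCM5 (-2.32) were called too, whereas MCM7 had 259 and 257 against 174 and 116 CPM and was under 2-fold (log2 fold change -0.77 ± 0.26 (SE), adjusted p = 0.00866).

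GINS1 and GINS2, both in the GINS complex, had log2 fold changes of -3.60 ± 0.32 and -3.56 ± 0.33, and GINS3 and GINS4 of -1.70 ± 0.33 and -1.66 ± 0.28. CDC7 fell by 3.03 on the log2 scale and its activator DBF4 did not pass (log2 fold change -0.53 ± 0.29 (SE), adjusted p = 0.12). CDC45 had 72.7 and 73.1 CPM with DMSO and 23.0 and 18.0 CPM with MK-2206 (log2 fold change -1.76 ± 0.30 (SE), adjusted p = 1.69e-08). GMNN, which restrains CDT1, had -2.48 ± 0.30 and CDT1 -1.23 ± 0.28.

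POLE2 fell from 31.0 and 33.2 to 1.86 and 3.24 CPM (log2 fold change -3.56 ± 0.37 (SE), adjusted p = 6.82e-21), while the catalytic POLE was under 2-fold (-0.68 ± 0.26, adjusted p = 0.0208). The 5 loader subunits RFC1 to RFC5 were called, from -2.48 for RFC4 to -1.22 for RFC1, and PCNA, which they load, was not (259 and 252 against 191 and 139.6 CPM, log2 fold change -0.57 ± 0.26 (SE), adjusted p = 0.0623). All 3 Okazaki fragment genes were called, FEN1 at -2.33 ± 0.29, RNASEH2A at -2.26 ± 0.31 and the ligase gene LIG1 at -2.003 ± 0.28. TYMS (-2.20 ± 0.27), TK1 (-1.83 ± 0.28) and CLSPN (-2.37 ± 0.30) were called as well. The 11 genes not called were MCM7, ORC4, ORC5, ORC6, PCNA, POLA2, POLD2, POLE, DBF4, TIMELESS and SLBP. SLBP had 137 and 135 CPM with DMSO and 182 and 121 CPM with MK-2206, with overlapping libraries (log2 fold change 0.22 ± 0.27 (SE), adjusted p = 0.479).

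FOXM1-KD against control cells separated some of the genes in both directions. With DMSO 3 were called higher and 6 lower, where 11.3% and 13.7% of all 23274 genes were. With AraC the counts were 4 and 7, against 15.2% and 14% of 24653 genes. With venetoclax they were 3 and 5, against 10.8% and 13.5% of 24947 genes. The medians of the 51 were -0.13, -0.04 and -0.03 on the log2 scale, against -0.03, 0.08 and 0.11 over all genes tested. Leaving out 1 library turned the sign of each, to 0.03 with DMSO (without the first FOXM1-KD library), 0.04 with AraC (without the first control library) and 0.33 with venetoclax (without the second control library). In each direction the share of the 51 that was called was near or under the background. The 3 comparisons share no library. They set the same 2 lines against each other, so a lasting difference between the lines can recur in each. In all of them 7 genes were called with the same direction: MCM7 and TIMELESS higher, and MCM4, MCM10, GINS4, RPA1 and WDHD1 lower. The share of all genes called in all 3 was not counted. With venetoclax only 2 genes were called without the first FOXM1-KD library, and with DMSO 5 were called without the first control library.

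MCM4 had 491 and 783 CPM in FOXM1-KD cells with DMSO against 1951 and 1746 CPM in control cells (log2 fold change -1.52 ± 0.27 (SE), adjusted p = 0.0203), and the log2 fold changes with AraC and venetoclax were -1.58 ± 0.14 and -1.46 ± 0.33. MCM7 had 447 and 590.2 CPM against 259 and 257 CPM (log2 fold change 1.02 ± 0.17 (SE), adjusted p = 0.0188), and 1.35 ± 0.17 and 1.35 ± 0.35 with AraC and venetoclax. The 2 subunits of one ring were thus called in opposite directions. Beside the named set, PRIM1, the catalytic primase subunit, was called higher with DMSO, from 34.3 and 39.1 to 89.6 and 87.2 CPM (log2 fold change 1.28 ± 0.12 (SE), adjusted p = 0.00446), and with AraC (1.51 ± 0.21).

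TIMELESS, which couples the helicase to the polymerases, had 71.5 and 77.5 CPM in control and 143 and 175 CPM in FOXM1-KD cells (log2 fold change 1.11 ± 0.15 (SE), adjusted p = 0.0106). GINS4 had 193 and 177 against 38.0 and 63.9 CPM (log2 fold change -1.85 ± 0.29 (SE), adjusted p = 0.0153). RPA1 had 259 and 255 against 73.4 and 101 CPM (log2 fold change -1.55 ± 0.19 (SE), adjusted p = 0.00883). With DMSO no library of one line overlapped the other in these 3 genes, and the share over all genes was not counted. MCM10, which helps the helicase start, had a log2 fold change -1.35 ± 0.20 (SE), adjusted p = 0.013, and WDHD1, which links polymerase alpha to the helicase, a log2 fold change -1.32 ± 0.18 (SE), adjusted p = 0.0113. GINS2 was called with DMSO (log2 fold change -1.25 ± 0.24 (SE), adjusted p = 0.025) but was under 2-fold with AraC and venetoclax (-0.81 and -0.86).

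Most called genes lay among neighbours whose median moved in the same direction. For each gene the protein-coding genes within 5 Mb on either side, members left out and with a mean of 100 counts or more, were taken from the same fit, 10 to 165 per gene. The neighbours of MCM4 (chr8:47960185-47978160) had a median log2 fold change of -1.40 with DMSO, and those of GINS4 (chr8:41529218-41545030) of -1.40. Those of MCM7 (chr7:100092233-100101940) had 1.20. TIMELESS (chr12:56416363-56449426) and PRIM1 (chr12:56730438-56752374) lie beside each other and share neighbours with a median of 1.18. For MCM10 (chr10:13161558-13211110), RPA1 (chr17:1829702-1900082) and WDHD1 (chr14:54938949-55027105) the medians were -0.94, -0.87 and -0.82. So 8 of the 9 called genes with DMSO, 9 of 11 with AraC and 7 of 8 with venetoclax had neighbours with a median past 0.5 on the log2 scale in the same direction. The exceptions were GINS2 (-0.23) with DMSO, GMNN (-0.29) and POLA2 (0.34) with AraC, and POLD2 (0.24) with venetoclax. The same share was not counted for called genes outside the 51. Fewer lay between the lower and upper quartiles of their neighbours with DMSO and AraC, 5 of the 9 and 6 of the 11. With venetoclax it was 7 of the 8. Across the 51 genes the change of a gene and the median of its neighbours had a Spearman correlation of 0.81, 0.73 and 0.79 with DMSO, AraC and venetoclax, and of 0.35 and 0.19 for AraC against DMSO in the 2 lines, as a description over genes that share libraries and, in part, neighbours. With MK-2206 it was 0.47.

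**Figure D4:**
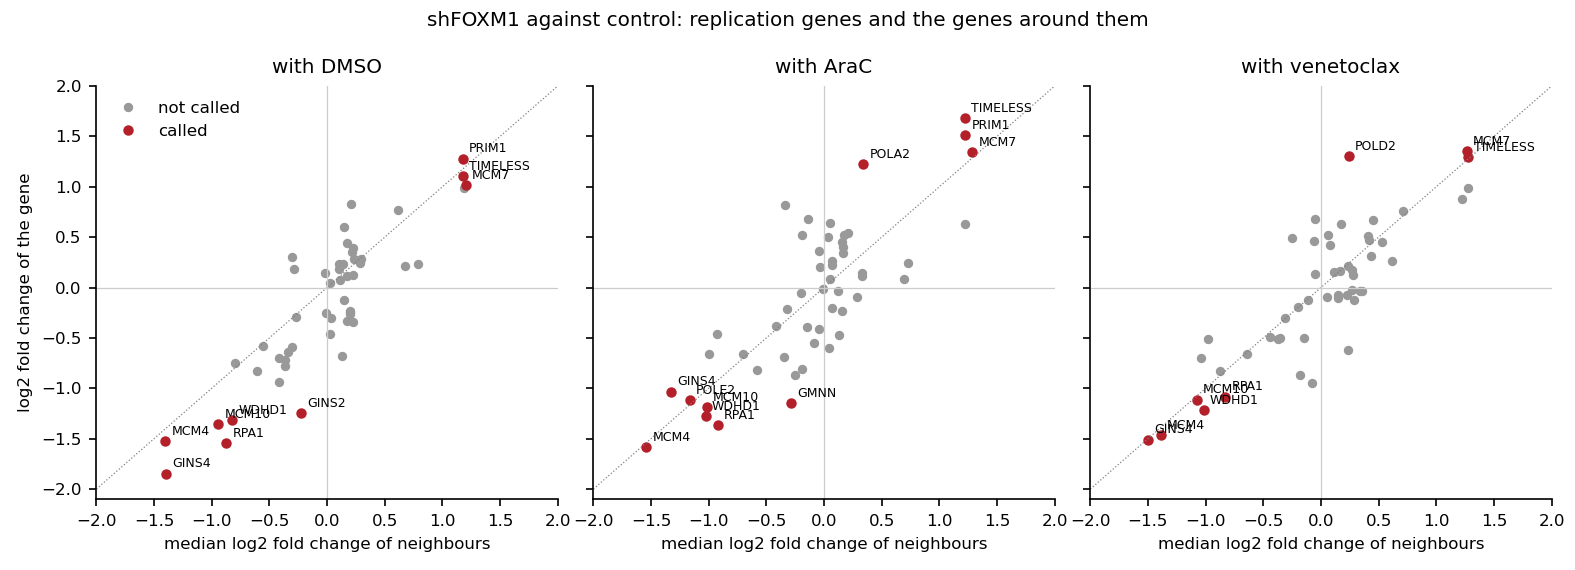
Log2 fold change of each of the 51 genes in FOXM1-KD against control cells (vertical) against the median of the protein-coding genes within 5 Mb (horizontal), with called genes named in red and the dotted line marking equal values. Called genes such as MCM4, at -1.52 with neighbours at -1.40 with DMSO, lie near the line, while others, among them GINS2, GMNN, POLA2 and POLD2, lie off it.

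Venetoclax and STL427944 left the genes without a call. For venetoclax in control cells 0 of the 51 and 0 of 22593 genes were called (a background of 0%), with 188 genes (0.832%) at an unadjusted p under 0.05, none of them a member, and DESeq2 called 0 members. The median log2 fold change of the 51 was -0.19, against 0.02 over all genes, and it was -0.01 without the first venetoclax library and -0.43 without the second. TK1 had 177 and 103 CPM with venetoclax against 157 and 149 CPM with DMSO, and the first venetoclax library was above and the second below both DMSO libraries. PCNA had 169 and 304 CPM against 259 and 252 CPM, with the libraries the other way round. In FOXM1-KD cells 0 of the 51 were called, against 2.09% of 23717 genes, with a median of 0.02 and no member at an unadjusted p under 0.05. In the interaction of the 2 lines 0 of the 51 were called, against 0.743% of 26393 genes.

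With STL427944, given for 48 h, 0 of the 51 and 0 of 22672 genes were called (a background of 0%), with 281 genes (1.24%) at an unadjusted p under 0.05 and no member among them, and DESeq2 called 0 members. The median of the 51 was -0.27, against 0.03 over all genes. MCM2 had 506 and 269 CPM against 563 and 532 CPM with DMSO (log2 fold change -0.49 ± 0.30 (SE), adjusted p = 0.929). GMNN had 127 and 54.0 CPM against 117 and 113 CPM. The second STL427944 library was below both DMSO libraries in each of these genes, and 1 library carried the lower median: without the first library it was -0.63 with GINS1, GMNN, PCNA and RPA3 called lower, and without the second 0.04 with none called.

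The libraries of a condition also differed by base composition. The GC content of the 51 transcripts ran from 37.39% (ORC4) to 64.76% (POLD1). In FOXM1-KD cells with AraC, the difference between the second and first library in log2 CPM had a Spearman correlation with GC content of -0.94 over the 51 genes and of -0.85 over 10243 well measured protein-coding genes. In control cells with AraC the values were -0.88 and -0.79, with venetoclax -0.84 and -0.65, with MK-2206 -0.71 and -0.69, and for venetoclax given to FOXM1-KD cells -0.93 and -0.73. With DMSO in control cells they were -0.58 and -0.20, in FOXM1-KD cells 0.28 and 0.16, and with STL427944 0.32 and 0.31. Genes rich in GC, such as POLD1 at 278 and 190.0 CPM in FOXM1-KD cells with AraC, stood lower in the second library, and genes poor in GC, such as DBF4 at 41.999 and 64.5 CPM, stood higher in it.

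**Figure D5:**
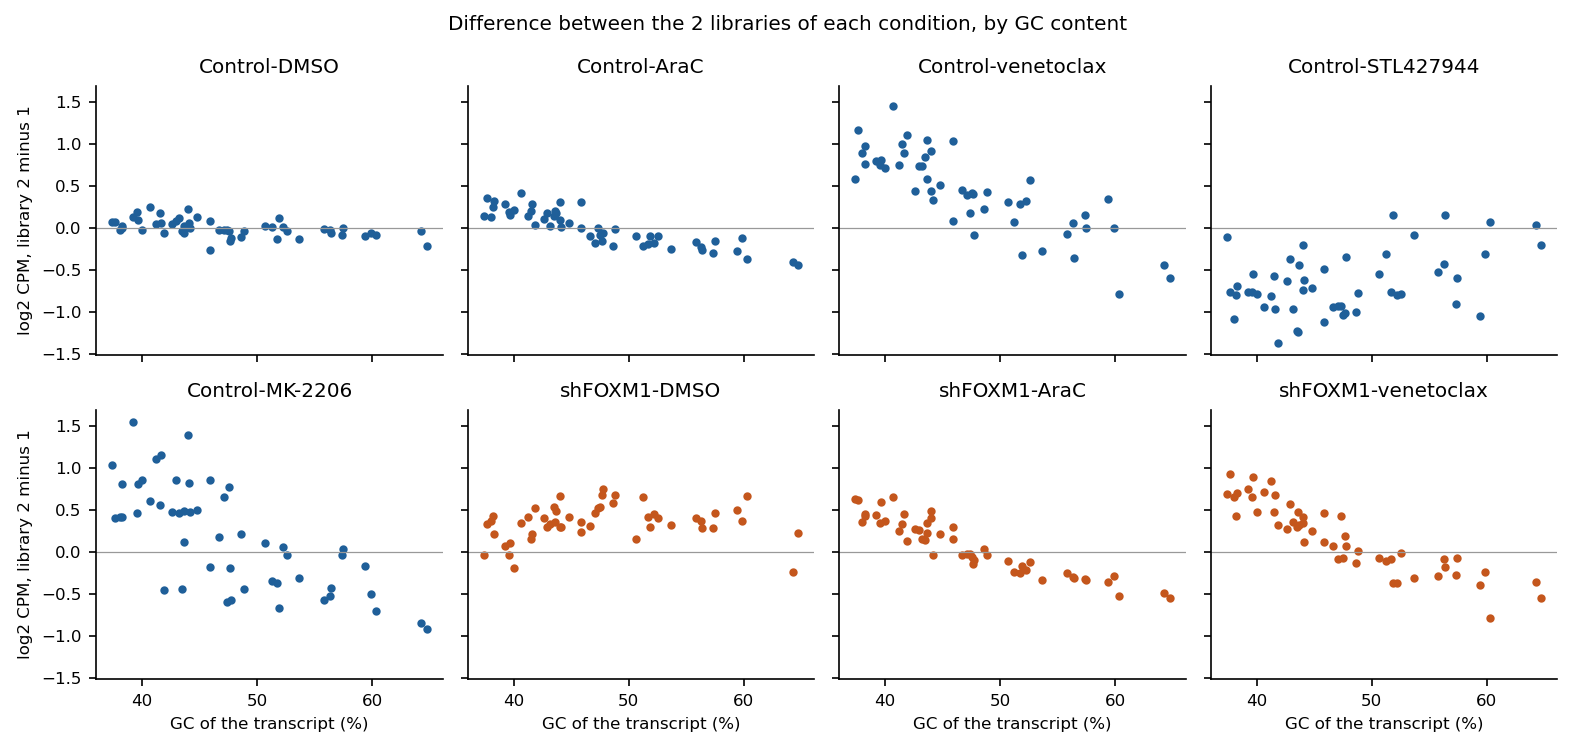
Difference in log2 CPM between the 2 libraries of each condition against GC content of the transcript (%), for the 51 genes. The points slope down in the AraC and venetoclax libraries of both lines and with MK-2206, from 0.65 to -0.55 for AraC in FOXM1-KD cells, and stay closer to level with DMSO in control cells.

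A pair of further lists gives the setting of these genes. Of 33 other replication genes, AraC in control cells raised 12 and lowered 1 at an adjusted p below 0.1. In FOXM1-KD cells it raised 9 and lowered none. Of all genes tested, 10.2% were higher and 9.17% lower in control cells, and 10.8% and 5.44% in FOXM1-KD cells. RRM2, the small subunit of ribonucleotide reductase, which makes deoxynucleotides, had 177 and 188 CPM with DMSO and 474 and 528 CPM with AraC in control cells (log2 fold change 1.44 ± 0.12 (SE), adjusted p = 7.05e-07), and a log2 fold change of 1.54 ± 0.25 in FOXM1-KD cells. Of 18 upstream regulators, AraC raised 10 and lowered 1 in control cells, and raised 7 and lowered 1 in FOXM1-KD cells. The shares over all genes are the same as for the first list. Cyclin E genes, whose products activate CDK2, were among them: CCNE1 had log2 fold changes of 2.56 ± 0.15 in control and 1.05 ± 0.28 in FOXM1-KD cells, a difference of -1.42 ± 0.30 (adjusted p = 0.000263). CCNE2 had 2.06 ± 0.13 and 2.38 ± 0.29. E2F2 (1.30 ± 0.14 and 1.81 ± 0.27), E2F7 (1.68 ± 0.15 and 1.78 ± 0.28) and E2F8 (1.18 ± 0.13 and 1.69 ± 0.27) were called in both lines, and E2F1 passed in FOXM1-KD cells only by its adjusted p (0.94 ± 0.27, against 0.35 ± 0.14 in control cells). With MK-2206, 23 of the 33 and 10 of the 18 were called lower and 4 and 2 higher. Of all genes tested 17.9% were called lower and 26% higher, and of the well measured protein-coding genes 37.3% were called lower. In FOXM1-KD against control cells with DMSO, 1 of the 33 was called higher and 3 lower, against 11.3% and 13.7% of all genes.

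Of the 51 genes 14 overlap another protein-coding gene, and 4 of these (PRIM1, POLD1, FEN1 and RNASEH2A) overlap one on the same strand. Reads in the shared stretches of these genes could have been counted for either gene or left out, so their levels are less certain.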

How the data were processed

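RNA-seq libraries of KG-1 cells were aligned to hg38 with STAR and counted per Ensembl gene with featureCounts by the authors, and the deposited values are raw counts. Versions and the strand setting are not given in the sources used here. The study's methods and the labels name different library kits. Counts were fitted with edgeR 4.0.16 (R 4.3.3; TMM, quasi-likelihood test) on the libraries of each comparison, keeping each gene with a count in any of them, and p-values were adjusted by Benjamini and Hochberg's method. The standard error (SE) given is the size of the log2 fold change divided by the square root of the F statistic of that test. The test shares variance estimates across genes, to an extent that differs between comparisons. A p-value therefore does not measure the spread between the libraries of a single gene alone, and p-values of different comparisons are not on one scale. Calls needed a 2-fold change and an adjusted p below 0.1. Alternatives were DESeq2 1.42.0, other scalings and filters, 1 fit of all libraries, each library left out, offsets for GC content and, for MK-2206, the FOXM1-KD DMSO libraries as reference, the last 2 chosen after seeing the data. Depth was 7351755 to 21362546 counts, median 18106217.5. The genes, lists and tests were chosen with earlier results of these data known. Values per library are given for up to 5 called genes in each direction for AraC and 3 for other comparisons, and for 19 genes that stand for the roles. Values of GINS3, POLD1, POLD3 and the other genes outside this rule were picked once the results were known. Labels of AraC, venetoclax and MK-2206 libraries carry replicate numbers, without saying whether equal numbers mark pairs. Deviations of same-numbered libraries in these groups correlated at 0.498 to 0.811 in 10 pairs of groups over 11038 genes. In each of these groups the difference between the libraries also fell with GC content, and its part in the correlations was not tested. DMSO and STL427944 libraries carry no number.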

Additional observations from a re-analysis of the deposited data

Results flagged for a closer look

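For 5 of the 51 genes the response to AraC differed between the lines by the test of the difference itself, each higher in FOXM1-KD cells. Of all genes tested 4.75% were higher and 1.91% lower by this test, and 7.83% and 3.98% of the well measured protein-coding genes. The difference in log2 fold change was 0.88 for MCM5 (adjusted p = 0.00774, edgeR), 0.895 for GINS4 (adjusted p = 0.0194), 0.91 for POLA2 (adjusted p = 0.0243), 0.74 for POLE (adjusted p = 0.0443) and 0.715 for POLD1 (adjusted p = 0.0856). With all 16 libraries in one fit none of the 5 passed, with adjusted p from 0.753 to 0.998. With DESeq2 MCM5 and POLA2 passed (0.0497 and 0.0585), and with offsets for GC content POLD1 did not (0.116). Without either AraC library of control cells, or without either DMSO library of control cells except MCM5 without the second (0.0965), none passed. None passed without the first AraC library of FOXM1-KD cells either (0.225 to 0.793).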

How the results depend on the processing

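Of 376 recomputed values of named genes and medians, 351 stayed the same. For a gene this meant a call in the same direction. For a median it meant a shift under 0.315 on the log2 scale, the SD of the median between libraries of a condition. Values of named genes no longer passed in 22 cases and none reversed, and 3 medians moved further. The sign of a median was not part of this rule, and some medians changed sign with a library left out, as given above. For AraC in control cells the 1 call became 2 with library totals, 25 without a fold limit and 0 to 1 with a library left out. For AraC in FOXM1-KD cells the 2 calls became 5 with library totals, 5 with offsets for GC content, 9 without a fold limit and 0 to 6 with a library left out. The difference between lines had 0 calls, 5 without a fold limit and 0 to 2 with a library left out. STL427944 had 0 calls, and 0 to 4 with a library left out. FOXM1-KD against control cells with DMSO had 9 calls, 23 without a fold limit and 5 to 11 with a library left out. With AraC it had 11, with 7 under offsets for GC content, 34 without a fold limit and 9 to 13 with a library left out. With venetoclax it had 8, and 2 to 10 with a library left out. A replicate block, which treats libraries of equal number as pairs, was fitted for FOXM1-KD against control cells with AraC and with venetoclax. The labels do not say that they are pairs. The block left the counts of 11 and 8 calls as they were. Without a fold limit 16 higher and 18 lower became 20 and 23 with AraC, and 4 and 6 became 14 and 15 with venetoclax. Where a group had 1 library left, that library was assumed to vary like the others. The cause of these changes was not tested. With 2 libraries per condition, small changes of these genes are at the limit of what can be detected.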
